A study of Mus musculus with 4 samples.

Results

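The Wnt ligands, their Frizzled receptors and 2 families of secreted Wnt antagonists were examined in the RNA of cultured keratinocytes (KCs), the main cells of the epidermis. The members were all genes in the deposited tables whose symbol is Wnt, Fzd, Sfrp or Dkk followed by a number and, in some, by the letter a or b. This rule found 37 of the 25814 listed genes, of which 19 encode Wnt ligands, 10 Frizzled receptors, 4 secreted frizzled-related proteins (Sfrp) and 4 Dickkopf proteins (Dkk). A gene was counted as expressed when its RNA level was at least 1 RPKM (reads in exons, scaled for exon length and library size) in at least 2 libraries.

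Wnt proteins are secreted, lipid-modified ligands that bind Frizzled receptors, which span the membrane several times. In the canonical branch the receptors act with the co-receptors Lrp5 and Lrp6, β-catenin is spared from degradation and enters the nucleus, and target genes such as Axin2 are transcribed. In other branches Frizzled receptors act on cell polarity and movement. Sfrp proteins bind Wnt ligands outside the cell, and most Dkk proteins block the co-receptors. In skin, Wnt signals are known for their part in the formation of hair follicles and in the renewal of epidermal stem cells.

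The study compared KCs of WT mice with KCs that lack NFAT5, a transcription factor that responds to osmotic stress. Adult 129/sv mice gave the tails for all libraries, and the WT animals were siblings of the Nfat5-deficient ones. The KCs were grown as untreated primary cultures in a serum-free medium with low calcium, from tails that had travelled overnight on ice according to the study's methods. There were 2 WT libraries and 2 libraries labelled Nfat5-Knockout, described as independent experiments. The methods also describe smaller size, kidney atrophy and permanent hypernatremia in 129sv mice. They do not say whether this holds for the WT siblings, the Nfat5-deficient animals or both. No allele is named beyond Nfat5-/-, and the labels give no tissue to which the deletion would be limited.

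Depth was 16219445 to 23494436 gene reads per library, so that 3 reads corresponded to 0.128 to 0.185 CPM (counts scaled by library total). Without molecular identifiers, such limits hold for counting error alone. The replicates of each group differed by more than sampling noise (chi-square per degree of freedom 16.7 in WT and 17.3 in Nfat5-Knockout), and each was counted as a sample. Nfat5 RNA did not separate the labels: it was at 1.67 and 3.002 RPKM in WT against 2.02 and 2.78 in Nfat5-Knockout (log2 fold change 0.09, SE 0.26, edgeR adjusted p 0.913). Reads were summed per gene, so the exons they came from are not seen, and the groups are called by their labels. Basal KC markers summed to 11064 to 12870 RPKM in the 4 libraries, and fibroblast, endothelial, leukocyte and Schwann cell markers each to at most 1.60 RPKM. Smooth muscle and pericyte markers summed to 150.9 to 819.0 RPKM and melanocyte markers to 2.04 to 7.29 RPKM. Both of these sums differed between the labels, as given at the end of the results.

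Of the 37 genes, 15 were expressed, namely 7 Wnt ligands (Wnt10a, Wnt9a, Wnt7a, Wnt4, Wnt7b, Wnt5a and Wnt11), 6 Frizzled receptors (Fzd6, Fzd5, Fzd2, Fzd7, Fzd1 and Fzd8), Sfrp1 and Dkk3. By the same rule 10261 of all listed genes were expressed. A further 5 genes had enough reads to be tested but stayed under the rule (Wnt10b, Wnt5b, Fzd3, Fzd10 and Fzd4), and 17 were not tested. Wnt7b passed the threshold between the labelled genotypes and was higher in Nfat5-Knockout, and none passed it in the other direction. That is 1 of 20 tested members, where 1.27% of all tested genes passed (0.943% higher and 0.325% lower). At an unadjusted p under 0.05 there were 8 members, 4 higher and 4 lower, against 14.6% of all tested genes (8.17% higher and 6.47% lower). With no filter on low counts Wnt7a and Wnt11 also passed the threshold, in a fit that passed 6.3% of 18043 genes (4.01% higher).

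**Figure D1:**
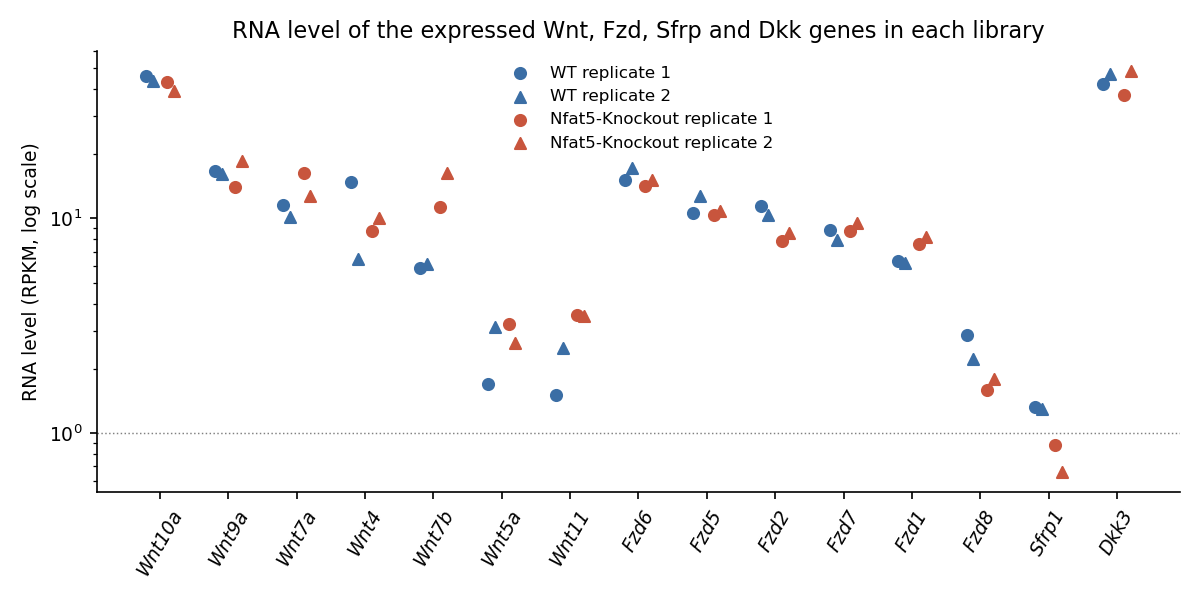
RNA level in RPKM on a log axis for the 15 expressed genes in each of the 4 libraries (blue, WT; red, Nfat5-Knockout; circle, replicate 1; triangle, replicate 2); the dotted line is the limit of 1 RPKM. Wnt10a and Dkk3 lie highest, between 37.7 and 48.7 RPKM, and for Wnt7b both red points lie above both blue ones.

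The plot of levels by library shows 1 ligand far above the others. Wnt10a, a ligand of teeth, hair and epidermis, was at 46.1 and 43.6 RPKM in WT against 43.0 and 39.2 in Nfat5-Knockout. Both Nfat5-Knockout values lay below both WT values, but the difference was about as large as its standard error (log2 fold change -0.11, SE 0.10, edgeR adjusted p 0.685). Wnt9a, the next ligand by mean level in each group, was at 16.6 and 16.2 RPKM in WT against 14.0 and 18.6 in Nfat5-Knockout, so the WT values lay inside the range of the others (log2 fold change 0.01, SE 0.15, adjusted p 0.988).

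Wnt7b, a ligand of the canonical branch in several epithelia, was at 5.87 and 6.15 RPKM in WT against 11.3 and 16.2 in Nfat5-Knockout. Both libraries labelled Nfat5-Knockout were above both WT libraries, and they lay further apart than the WT libraries did. The lowest of them was 1.83 times the highest WT value, and the highest was 2.76 times the lowest WT value. The mean went from 6.01 ± 0.198 to 13.7 ± 3.50 RPKM (SD, n = 2 each), a ratio of 2.29. It had 461 and 636 gene reads in WT against 1260 and 1440 in Nfat5-Knockout. The log2 fold change was 1.20 (SE 0.18), and the edgeR quasi-likelihood test gave an unadjusted p of 2.9e-04 and, over all 12614 genes tested, an adjusted p of 0.0351. In bulk RNA, a change in the number of cells that express a gene and a change in the RNA per cell cannot be told apart.

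Wnt7b (ENSMUSG00000022382) lies on chromosome 15 from 85535437 to 85582473 on the minus strand of GRCm38, with 12 listed exons and an exon length of 4613 bases. All of its exon reads were placed at a single site (100% unique). Reads in its introns were few, 11 and 8 in WT and 9 and 12 in Nfat5-Knockout, so the difference lay in exon reads.

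The call of Wnt7b was lost in 3 alternative fits. Without Nfat5-Knockout replicate 2 the log2 fold change was 0.89 (SE 0.13, adjusted p 0.110), in a fit that passed 16 genes in all where the reported fit passed 160, and without Nfat5-Knockout replicate 1 it was 1.45 (adjusted p 0.0405). The difference stayed above 0 in all 16 alternative fits, from 0.89 to 1.45, and passed the threshold in 13 of them. The other fits without a call were limma-trend on the RPKM values of all tested genes, with an adjusted p of 0.230 and 0.246. Limited to expressed genes, limma-trend passed (adjusted p 0.0322 and 0.0340). These limited fits are among the 13, but they were added after seeing the data.

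**Figure D2:**
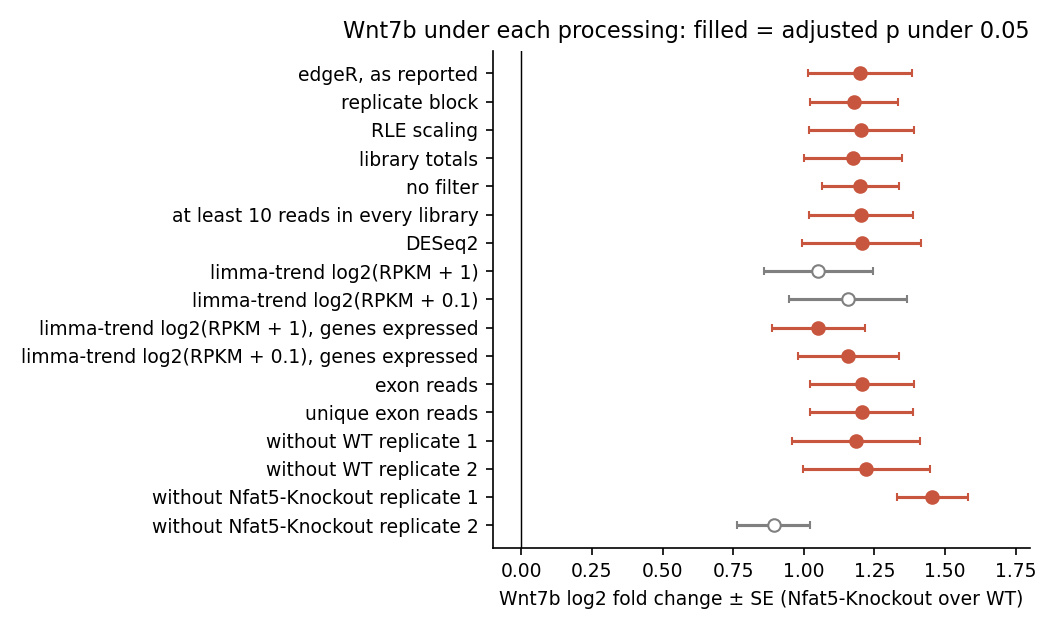
Log2 fold change of Wnt7b (Nfat5-Knockout over WT, x axis) with its standard error as a bar in the reported edgeR fit and under each other processing; filled points have an adjusted p under 0.05. All points lie between 0.89 and 1.45, and the lowest is the fit without Nfat5-Knockout replicate 2.

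Wnt7a, the closest relative of Wnt7b, was at 11.5 and 10.1 RPKM in WT against 16.3 and 12.8 in Nfat5-Knockout. The groups did not overlap, yet the difference did not pass the threshold (log2 fold change 0.44, SE 0.14, unadjusted p 0.0160, adjusted p 0.221 in edgeR). The level of Wnt7b relative to Wnt7a was 0.510 and 0.606 in WT and 0.693 and 1.27 in Nfat5-Knockout, so that Wnt7b was the higher one in 1 of the 4 libraries. This ratio was formed after its values were seen.

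Wnt11, a ligand of the branches without β-catenin, was at 1.51 and 2.49 RPKM in WT against 3.54 and 3.50 in Nfat5-Knockout. Both Nfat5-Knockout libraries lay above WT and close to each other, and the WT libraries were spread (log2 fold change 0.79, SE 0.23, unadjusted p 0.0113, adjusted p 0.186 in edgeR). Leaving out WT replicate 2, the higher WT library, brought it past the threshold (log2 fold change 1.19, adjusted p 0.0174), in a fit that passed 3.7% of genes (2.18% higher and 1.52% lower), and leaving out WT replicate 1 gave 0.50 (adjusted p 0.348). Wnt5a, of the same branches, was at 1.69 and 3.12 RPKM in WT against 3.21 and 2.63 in Nfat5-Knockout, with overlapping groups (log2 fold change 0.30, SE 0.27, adjusted p 0.664).

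Wnt4 was the ligand with the widest spread between WT libraries. It was at 14.8 and 6.49 RPKM in WT against 8.73 and 10.003 in Nfat5-Knockout, both of which lay between the WT values (log2 fold change -0.16, SE 0.33, adjusted p 0.868). Its direction followed the WT library that was kept: the log2 fold change was 0.55 without WT replicate 1 and -0.64 without WT replicate 2.

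**Figure D3:**
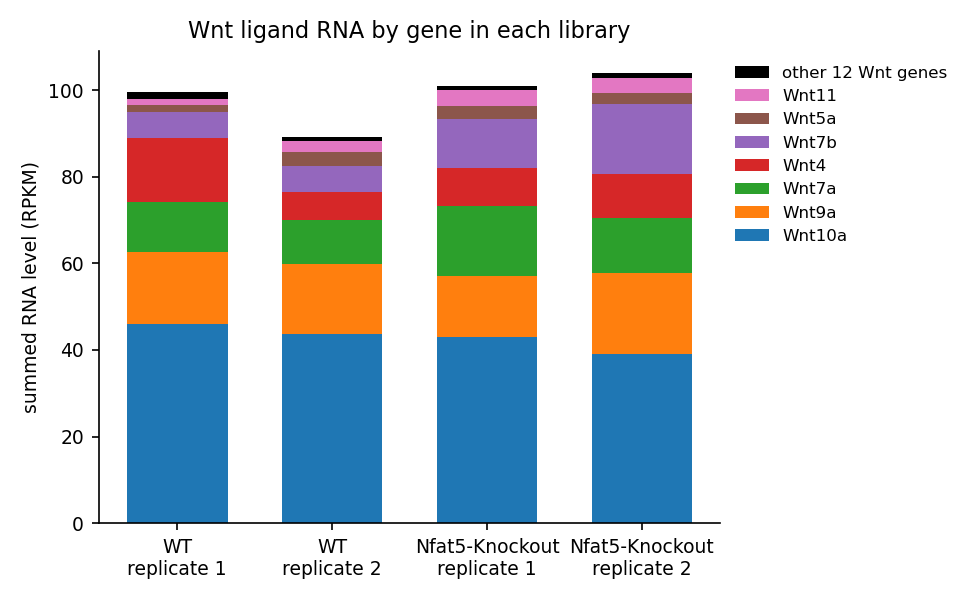
Summed RPKM of the Wnt ligands (y axis) in each library, stacked by gene, with the 12 ligands under the expression rule as a black segment. The sums lie between 89.1 and 103.9 RPKM, and the Wnt7b segment is larger in both Nfat5-Knockout libraries.

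Added over all 19 ligand genes, Wnt RNA was 99.5 and 89.1 RPKM in WT against 101.1 and 103.9 in Nfat5-Knockout. The stacked plot of ligand RNA shows what made up these sums. Wnt10a held 46.3% and 49.0% of the sum in WT and 42.6% and 37.7% in Nfat5-Knockout. Wnt7b held 5.89% and 6.90% in WT and 11.1% and 15.6% in Nfat5-Knockout. Since RPKM is scaled to exon length, these shares compare levels between genes, and they were not tested.

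The other 12 ligand genes were under the expression rule. Wnt10b (at most 0.415 RPKM) and Wnt5b (at most 0.499 RPKM) had enough reads for a test and did not pass it. Wnt5b overlaps Fbxl14 on the opposite strand, which had 365 to 708 reads, and the counting was done at the software's default settings, whose use of strand is not spelled out in the sources used here, so its value is uncertain. Wnt3 reached 0.469 RPKM in WT replicate 1, the highest value among the genes that were not tested, and had at most 0.102 RPKM in the other 3 libraries. Wnt3a, Wnt6, Wnt2, Wnt2b, Wnt16 and Wnt1 had few reads, those of Wnt16 and Wnt1 all outside exons, and Wnt9b, Wnt8a and Wnt8b had 0 reads in every library.

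Among the receptors, none passed the threshold. Fzd6, a receptor of hair and tissue polarity, had the highest level, at 15.1 and 17.1 RPKM in WT against 14.2 and 15.07 in Nfat5-Knockout (log2 fold change -0.12, SE 0.11, edgeR adjusted p 0.680). The Nfat5-Knockout values lay just under the lower WT value, and in CPM the groups overlapped. Fzd5 was at 10.6 and 12.7 RPKM in WT against 10.4 and 10.9 in Nfat5-Knockout, with overlap (log2 fold change -0.11, SE 0.12, adjusted p 0.724), and 83.5% of its exon reads were placed at a single site.

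Fzd2, Fzd1 and Fzd7 form a group of closely related receptors, each encoded in 1 exon. Fzd2 was at 11.4 and 10.4 RPKM in WT against 7.83 and 8.58 in Nfat5-Knockout, with both latter values below WT (log2 fold change -0.39, SE 0.12, unadjusted p 0.0139, adjusted p 0.208 in edgeR). Fzd1 was at 6.35 and 6.21 RPKM in WT against 7.60 and 8.22 in Nfat5-Knockout, both above WT (log2 fold change 0.35, SE 0.12, unadjusted p 0.0179, adjusted p 0.235). The pair thus lay on opposite sides of 0, without either passing the threshold. Fzd7 was at 8.83 and 7.95 RPKM in WT against 8.76 and 9.50 in Nfat5-Knockout, where the groups overlapped (log2 fold change 0.14, SE 0.12, adjusted p 0.637).

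The level of Fzd1 relative to Fzd2 was 0.558 and 0.599 in WT and 0.970 and 0.959 in Nfat5-Knockout. This ratio was also chosen after its values were seen and is given with no test. Fzd8 was at 2.88 and 2.21 RPKM in WT against 1.59 and 1.78 in Nfat5-Knockout, with both latter values below WT (log2 fold change -0.57, SE 0.21, unadjusted p 0.0286, adjusted p 0.281).

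Fzd4, also a receptor for norrin, was under the expression rule, at 0.188 and 0.195 RPKM in WT against 0.0988 and 0.0779 in Nfat5-Knockout. These values rest on 21 and 29 reads in WT and on 16 and 10 in Nfat5-Knockout (log2 fold change -1.08, SE 0.38, unadjusted p 0.0240, adjusted p 0.263 in edgeR). Fzd3 (0.572 to 0.794 RPKM) and Fzd10 (0.575 to 0.833 RPKM) were close to the expression limit and did not pass the test. Fzd9 was not tested and had 3 to 8 reads per library. Summed over the 10 receptors, RNA was 56.9 and 58.3 RPKM in WT against 51.8 and 55.8 in Nfat5-Knockout.

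**Figure D4:**
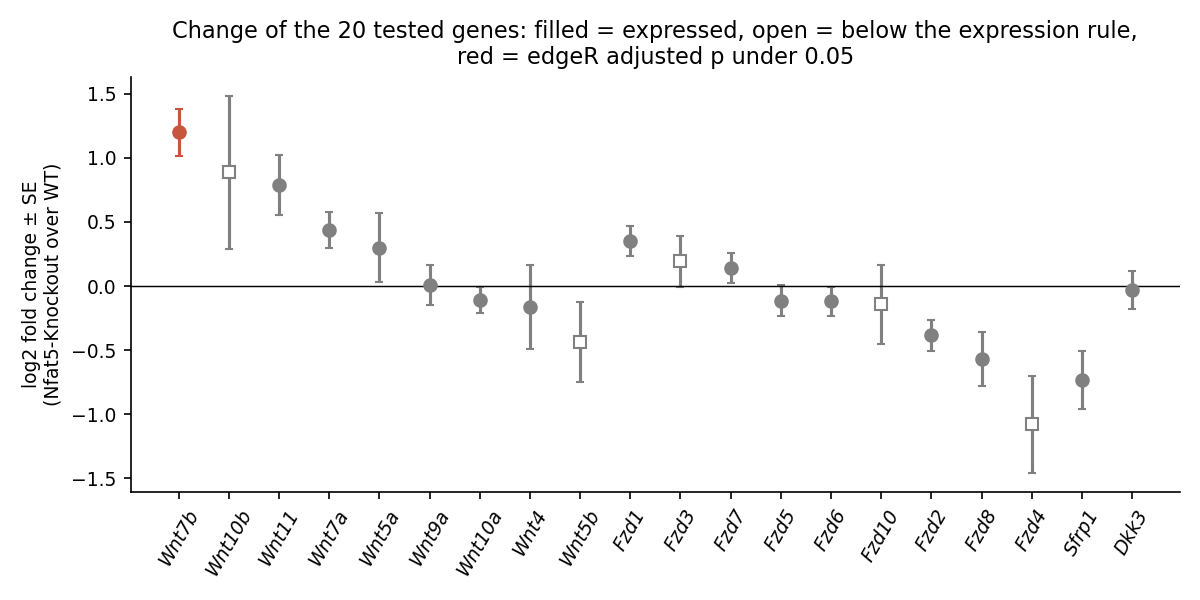
Log2 fold change (Nfat5-Knockout over WT, y axis) with its standard error as a bar for the 20 tested genes, ordered by family and size; filled symbols are expressed genes, open squares are genes under the expression rule, and red marks an edgeR adjusted p under 0.05. Wnt7b at 1.20 is the only red point, and the others lie between -1.08 and 0.89.

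The antagonists were represented by 1 gene of each family. Sfrp1, a secreted protein that binds Wnt ligands, was at 1.32 and 1.29 RPKM in WT against 0.883 and 0.659 in Nfat5-Knockout. Both latter values were below WT and below 1 RPKM, so Sfrp1 met the expression rule through the WT libraries alone (log2 fold change -0.73, SE 0.23, unadjusted p 0.0143, adjusted p 0.211 in edgeR). It had 96 and 125 gene reads in WT against 93 and 55 in Nfat5-Knockout.

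Dkk3, a divergent Dickkopf protein that is not a typical blocker of the co-receptors, was at 42.2 and 47.2 RPKM in WT against 37.7 and 48.7 in Nfat5-Knockout. The WT values lay inside the range of the others (log2 fold change -0.03, SE 0.15, adjusted p 0.945). Dkk1, the classical blocker of Lrp5 and Lrp6, had 0 reads in every library, which allows a level of up to 0.0743 RPKM at 3 reads in the shallowest one. Sfrp5 also had 0 reads, and Dkk2, Dkk4, Sfrp2 and Sfrp4 had at most 11 reads in any library.

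The plot of fold changes sets the 20 tested members side by side. Of these, 9 had a log2 fold change above 0 and 11 below, with a median of -0.07, beside -0.01 over all tested genes. Among the 15 expressed members the RPKM values of the groups did not overlap in 9, where 47.1% of all expressed genes did not overlap (20.9% higher and 26.3% lower). Wnt7b, Wnt11, Wnt7a and Fzd1 were the 4 that lay higher in Nfat5-Knockout, and Wnt10a, Fzd2, Fzd6, Fzd8 and Sfrp1 the 5 that lay lower. Sfrp1 met the expression rule through the WT libraries alone, so its lack of overlap follows from that rule, and Fzd6 overlapped in CPM.

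The other genes of the pathway were read from 7 lists, by role, with 81 genes in all, of which 45 were expressed and 59 tested. None passed the threshold in edgeR, where 1.27% of all tested genes did, and 6 of the 59 had an unadjusted p under 0.05, where 14.6% of all tested genes did. Of the tested genes 24 had a log2 fold change above 0 and 35 below, with a median of -0.04. DESeq2 passed 1 of them, Porcn, beside 3.38% of all tested genes.

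Ligand processing came closest to the threshold. Porcn, the enzyme that attaches the lipid to Wnt proteins, was at 34.2 and 30.5 RPKM in WT against 19.1 and 21.7 in Nfat5-Knockout. Both latter values were below WT (log2 fold change -0.65, SE 0.12, unadjusted p 8.7e-04, adjusted p 0.0583 in edgeR), and the adjusted p was 0.00174 in DESeq2 and 0.0941 with a replicate block. Wls, the carrier that takes Wnt proteins to the cell surface, was at 36.3 and 32.9 RPKM in WT against 33.3 and 36.6 in Nfat5-Knockout, and Trabd2b, a protease that cuts Wnt proteins, ranged from 0.809 to 1.83 RPKM (adjusted p 0.855).

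**Figure D5:**
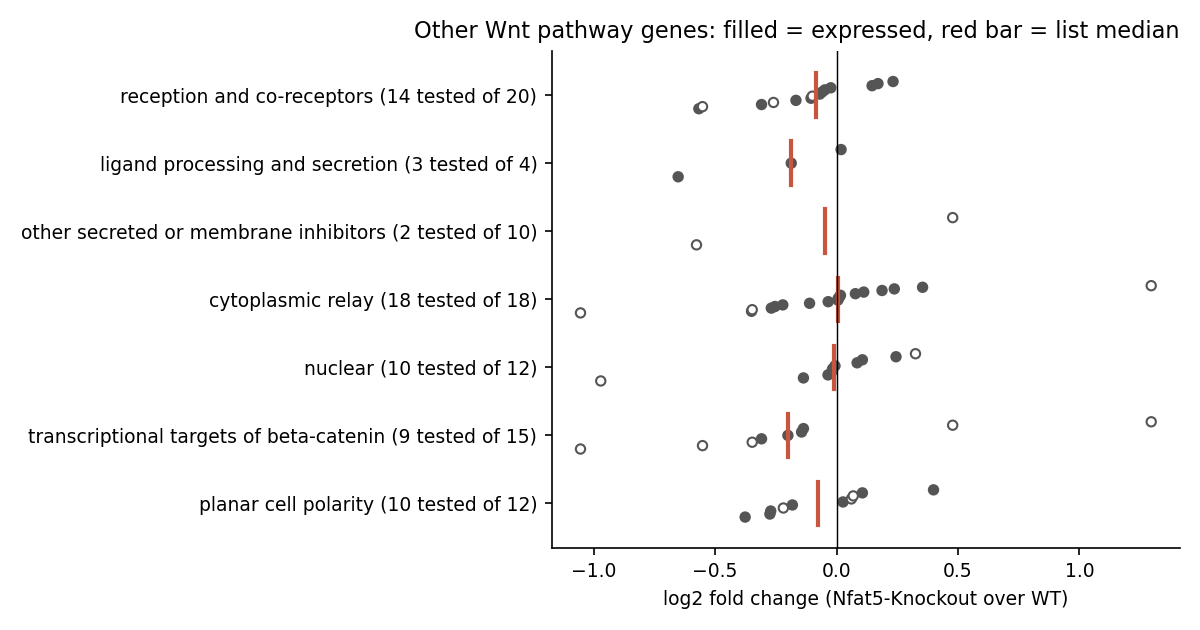
Log2 fold change (Nfat5-Knockout over WT, x axis) of each tested gene in the 7 lists of other Wnt pathway genes, with filled points for expressed genes and a red bar at the list median. The list medians lie between -0.20 and 0.01, and no gene shown passed the threshold.

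In the plot of the lists, points lay on both sides of 0 in each. Of 20 genes for reception and co-receptors 14 were tested, 3 above 0 and 11 below. Ror1, a receptor for Wnt5a, was at 6.82 and 4.95 RPKM in WT against 3.82 and 4.11 in Nfat5-Knockout (log2 fold change -0.57, SE 0.17, adjusted p 0.186), and Znrf3, a ligase that removes Frizzled receptors from the membrane, was under 1 RPKM in every library (log2 fold change -0.55, adjusted p 0.241). Lrp6 was at 6.81 and 6.77 RPKM in WT against 6.32 and 6.93 in Nfat5-Knockout. Of 10 other inhibitors none was expressed, and the 2 that were tested, Apcdd1 and Shisa2, had adjusted p of 0.732 and 0.794.

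All 18 genes of the cytoplasmic relay were tested, 10 above 0 and 8 below. Dvl3, an adaptor below Frizzled, was at 10.95 and 11.9 RPKM in WT against 13.9 and 16.4 in Nfat5-Knockout (log2 fold change 0.35, SE 0.12, adjusted p 0.255 in edgeR). Ctnnb1, which encodes β-catenin, was at 135.9 and 160.9 RPKM in WT against 174.0 and 171.5 in Nfat5-Knockout (log2 fold change 0.24, SE 0.11, adjusted p 0.390). Of the 12 nuclear genes 10 were tested, and the lowest adjusted p values were 0.408 for the co-repressor Tle2 and 0.573 for its relative Tle4.

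Most common targets of β-catenin were near the lower limit of detection. Of 15 target genes 4 were expressed and 9 tested, with 2 above 0, 7 below and a median of -0.20. Axin2, the target most often used as a readout, was at 0.108 and 0.0359 RPKM in WT against 0.148 and 0.177 in Nfat5-Knockout, on 10, 6, 22 and 22 reads (log2 fold change 1.30, SE 0.50, unadjusted p 0.0354, adjusted p 0.304). Znrf3, also in this list, lay on the other side of 0, on 129, 189, 127 and 109 reads (log2 fold change -0.55, SE 0.18, unadjusted p 0.0192, adjusted p 0.241 in edgeR). Lef1 and Lgr5 had at most 5 and 9 reads in any library, and Sp5 had 0 in all. The abundant targets Ccnd1 (adjusted p 0.629) and Myc (adjusted p 0.760) have many other regulators. Of the 12 genes for planar cell polarity 10 were tested, and the lowest adjusted p values were those of Scrib (log2 fold change -0.38, SE 0.15, adjusted p 0.323) and Celsr1 (log2 fold change 0.40, SE 0.18, adjusted p 0.377).

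Some markers of other cell types and states moved with the labels beside Wnt7b. All 4 tested genes of 6 listed for smooth muscle and pericytes (Acta2, Tagln, Myh11 and Cnn1) rose (edgeR adjusted p 0.0440 or less), and the summed level of the list was 183.9 and 150.9 RPKM in WT against 517.9 and 819.0 in Nfat5-Knockout, while Rgs5 was at 0 in every library and Des had 1 read in all. Of 5 genes listed for the hair follicle 1 passed, Krt17, at 4619 and 4503 RPKM in WT against 6825 and 8032 in Nfat5-Knockout (adjusted p 0.0399). Krt17 made up nearly all of the sum of that list, and the other 4 genes together were at 81.0 and 75.9 RPKM in WT against 71.9 and 80.2 in Nfat5-Knockout, with overlapping groups. Among them Sox9 had a log2 fold change of -0.02 (adjusted p 0.959) and Lhx2 one of -0.60 (unadjusted p 0.00940, adjusted p 0.173), while Krt15 (1.39, adjusted p 0.349) and Krt79 (3.45, adjusted p 0.0654) had 3 to 56 reads per library. Of 5 melanocyte genes Tyrp1 fell (adjusted p 0.0203), and the sum was 7.29 and 6.99 RPKM in WT against 2.04 and 2.89 in Nfat5-Knockout. Suprabasal KC genes summed to 62.1 and 29.4 RPKM in WT against 50.6 and 80.6 in Nfat5-Knockout, with none past the threshold. Like Wnt7b, Acta2, Tagln and Krt17 were higher in Nfat5-Knockout replicate 2 than in replicate 1. This is an order of 2 libraries and was not tested, and Wnt7a had the opposite order (16.3 RPKM in replicate 1 and 12.8 in replicate 2). The part of these cells or states in the Wnt7b difference was not tested.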

How the data were processed

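Polyadenylated RNA of 4 KC cultures was sequenced. The authors aligned the reads to GRCm38 with the CLC Genomics Workbench, left at the defaults of its RNA-Seq analysis, and deposited, per library, read counts per gene (gene, exon, intron and unique reads, not normalized) and RPKM with decimal commas. How these defaults place reads with several matching sites, and whether they use strand, is not spelled out in the sources used here.

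Groups and replicate numbers came from the sample titles. Total gene reads were filtered with filterByExpr (12614 genes left), scaled with TMM factors and tested with the edgeR 4.0.16 quasi-likelihood test in R 4.3.3, with genotype as the only term. P-values were two-sided and Benjamini-Hochberg adjusted over all tested genes, with a threshold of 0.05. The procedure was tested on simulated counts. With 2 libraries per group an exact permutation test cannot go below p = 0.3333, so overlap between groups is only described. The SE of a log2 fold change was taken from its F statistic.

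Levels are per-library RPKM. Every expressed member, and every member past the threshold, was named with its values. Of the members tested but not expressed, those with an unadjusted p under 0.05 were named too, and of each pathway list the 2 genes with the smallest p. Wls, Lrp6, Ctnnb1, Lef1, Lgr5, Sp5, Ccnd1 and Myc were named beyond this rule, after their values were seen. The members and the lists were chosen with earlier results of these data known. Of the marker genes 1, for leukocytes, was not analysed here. Alternatives were a replicate block, RLE scaling, library totals, no filter or at least 10 reads in every library, DESeq2 1.42.0, limma-trend (limma 3.58.1) with a pseudocount of 1 or 0.1 on RPKM, the exon reads, the unique exon reads, an adjusted p under 0.1, other expression limits, and each library left out in turn.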

Additional observations from a re-analysis of the deposited data

How the results depend on the processing

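Of 254 fold changes of the 16 named members under the alternatives, 234 kept their direction and their side of the threshold, 3 lost the call, 4 gained one and 13 changed sign, in 5 members. The cause of these changes was not tested except where stated. The number of members called higher was 3 with no filter (Wnt7b, Wnt7a and Wnt11), 0 with limma-trend on log2(RPKM + 1) and 0 on log2(RPKM + 0.1), and 0 to 2 with a library left out. These limma-trend fits held 149 genes with no spread in RPKM in either group and called 1 of 12614 genes. Limited to expressed genes, an alternative added after seeing the data, they called 169 and 145 genes, Wnt7b among them (adjusted p 0.0322 and 0.0340). None was called lower in any fit on all 4 libraries. The call that Wnt4 gained without WT replicate 2 rested on a log2 fold change of -0.64, with 1 WT library left. Over all genes the number called was 160 as reported, 1137 with no filter, 426 with DESeq2, 364 at an adjusted p under 0.1, and 268, 478, 31 and 16 without WT replicate 1, WT replicate 2, Nfat5-Knockout replicate 1 and Nfat5-Knockout replicate 2. The number of other pathway genes called was 1 with library totals, with DESeq2, with unique exon reads, with limma-trend on log2(RPKM + 1) of expressed genes and at an adjusted p under 0.1, in each case Porcn, and 3 with no filter (Porcn, Ror1 and Celsr1). Of all tested genes, 1.7% passed with library totals, 1.87% with unique exon reads and 1.65% with that limma-trend fit. Without WT replicate 2 the log2 fold change was -0.74 for Porcn, -0.79 for Ror1 and -0.59 for Scrib.

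Wnt9a turned from 0.01 to -0.0047 with the replicate block, -0.0134 with library totals, and -0.0184 and -0.0201 in the limma-trend fits with a pseudocount of 1 and 0.1 on either gene set, and ranged from -0.23 to 0.22 with a library left out. With a library left out, Fzd5 ranged from -0.23 to 0.0243, Wnt4 from -0.64 to 0.55, Dkk3 from -0.25 to 0.16, and Wnt5a from -0.0559 to 0.82. With the replicate number as a block, Wnt7b had a log2 fold change of 1.18 (adjusted p 0.0300), 132 genes were called in all, and no call among the members changed. Same-numbered libraries did not deviate together (correlation -0.0652), so the numbers are not taken as pairs. Where a library was left out, the lone library of its group was assumed to vary like those of the other group. The number of expressed members was 14 to 17 under the other expression limits and with a library left out. In CPM 8 members did not overlap, since Fzd6 overlapped there. No share over all genes was formed for CPM, so this count is only a description. With 2 libraries per group and from 55 to 3556 reads per expressed member, a missed threshold does not show that a gene was equal in both groups.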
